A study of Mus musculus with 26 samples.

Results

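The 8 genes that set Mtgr1-/- apart from Prdm14-/- mouse embryonic stem cells (mESCs) were followed across every RNA-seq library of the series: Matn1, Ly6g6e, Txnip, Car4, Vgf, Mtap7d3, Fam111a and A2m. They are 8 of the 24015 genes in the files, and all 8 passed the filter on low values that left 13477 genes for testing. They were chosen on measured values. Matn1, Ly6g6e and Txnip headed the genes lower in Mtgr1-/- than in Prdm14-/- cells, Car4 was among the genes most above the FH-Prdm14 rescue in Prdm14-/- cells, Vgf among those most above the FH-Mtgr1 rescue in Mtgr1-/- cells, and Mtap7d3 and Fam111a (in Prdm14-/- cells) and A2m (in Mtgr1-/- cells) were among those furthest below wt cells in serum. Values of the knockouts are therefore descriptions with no test, and tests were run only between conditions that did not choose the gene. The spread in these tests was pooled over all 15 libraries, the knockouts included. The values that chose a gene therefore also enter its standard errors and p-values.

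The 15 libraries came from Stella:GFP mESCs, a line with a germ cell reporter, maintained in 2i+LIF, a serum-free medium with a MEK and a GSK3β inhibitor and the cytokine LIF. Unedited (wt) cells gave 2 libraries in 2i+LIF and 1 in serum+LIF. All other libraries were from cells moved to feeder-free serum+LIF for 5 days, as was that wt serum library: Prdm14-/- cells (clones G6 and F10, cut by CRISPR-Cas9 in the second exon of Prdm14), the same clones carrying tagged wt Prdm14 (FH-Prdm14) or tagged Prdm14 with the E294K substitution (E294K), Mtgr1-/- cells (clones A3, C1 and C3, cut in the third exon of Cbfa2t2, the gene of Mtgr1) and the same clones carrying tagged Mtgr1 (FH-Mtgr1). Each clone grew from a single cell, and a rescue line shares any trait of its parental clone. The FH-Prdm14 and E294K lines carry Prdm14 RNA far above the wt level: Prdm14 RNA was at 116 and 79.8 RPKM in the FH-Prdm14 lines and at 89.9 and 105 RPKM in the E294K lines, against 2.77 RPKM in wt serum cells and 30.8 and 19.1 RPKM in wt 2i cells. RPKM is a read count divided by gene length and by the total counted on genes in that library.

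Prdm14 is a zinc-finger protein that binds DNA at a defined motif and keeps mESCs in the naive state, and Mtgr1, of the ETO family of corepressors, binds Prdm14 directly. The E294K substitution lies in the surface of Prdm14 that contacts Mtgr1 and disrupts the contact. Loss of either protein therefore removes a part of the same complex, and the genes described here are those for which the pair of losses did not look alike, or for which 1 of them gave an extreme change.

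Promoter sequences, taken from RefSeq (GRCm38.p6), were found for 5 of the 8 genes (Matn1, Txnip, Car4, Mtap7d3, listed there as Map7d3, and Fam111a) and not for Ly6g6e, Vgf and A2m. The 250 bases before the start were searched on both strands for the Prdm14 motif (GGTCTCTAA), the E-box (CACGTG), paired CACGNG boxes 5 bases apart, the GC box (GGGCGG), the TATA box (TATAAA), the cAMP response element (CRE, TGACGTCA) and the letters CCAAT. The 3 shown are Fam111a and Mtap7d3, both low in Prdm14-/- and FH-Prdm14 cells and higher in E294K cells, and Txnip, a gene read by glucose-sensing factors. Matn1 and Car4 also differed between E294K and FH-Prdm14 (log2 differences -2.87 and 2.27, the second with no test) and are not shown. The 3 promoters therefore do not stand for the 5. Capitals mark matches to the motifs, and no 2 matches overlap.
Fam111a (chr19:12573260-12573509, plus strand): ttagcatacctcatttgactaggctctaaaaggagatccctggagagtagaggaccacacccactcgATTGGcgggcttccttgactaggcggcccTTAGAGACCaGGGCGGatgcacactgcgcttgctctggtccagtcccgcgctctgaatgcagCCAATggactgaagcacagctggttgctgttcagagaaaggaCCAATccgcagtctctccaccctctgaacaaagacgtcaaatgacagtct
Mtap7d3 (chrX:56822326-56822575, minus strand): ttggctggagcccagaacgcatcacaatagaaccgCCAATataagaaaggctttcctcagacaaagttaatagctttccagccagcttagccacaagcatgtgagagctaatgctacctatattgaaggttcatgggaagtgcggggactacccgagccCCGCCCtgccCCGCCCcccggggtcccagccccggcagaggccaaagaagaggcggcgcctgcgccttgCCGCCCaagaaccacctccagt
Txnip (chr3:96557707-96557956, plus strand): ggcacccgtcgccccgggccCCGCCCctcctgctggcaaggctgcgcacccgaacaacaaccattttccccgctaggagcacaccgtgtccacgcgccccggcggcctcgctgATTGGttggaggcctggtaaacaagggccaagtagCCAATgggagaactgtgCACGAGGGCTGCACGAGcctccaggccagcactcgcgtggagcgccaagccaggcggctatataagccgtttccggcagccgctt
Fam111a held the Prdm14 motif on the minus strand (TTAGAGACC on the strand shown), from -154 to -146 relative to the first of its 2 listed starts. This motif occurred in 78 of 32536 promoters of this length (0.24%). Mtap7d3 held none of it, and had 3 GC boxes and 1 CCAAT box. Txnip held the paired CACGNG boxes (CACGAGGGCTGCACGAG, from -85 to -69), which 15 of 32536 promoters had (0.0461%), and paired boxes of this kind are known in Txnip as carbohydrate response elements. CCAAT boxes were in 33.8%, GC boxes in 33%, TATA boxes in 12.3%, E-boxes in 6.04% and CREs in 1.56% of promoters. Matn1 had 1 GC box in its window, and Car4 had none of the motifs. A match is a description of the letters and says nothing of binding.

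Txnip, which encodes a thioredoxin-binding arrestin-domain protein that lowers glucose uptake, was abundant in every condition except Mtgr1-/- cells. It was at 165 RPKM in wt serum cells, at 180 and 256 RPKM in 2i, at 194 and 231 RPKM in Prdm14-/- clones G6 and F10 and at 205 and 222 RPKM in their FH-Prdm14 lines. The Mtgr1-/- clones A3, C1 and C3 had 18.6, 17.5 and 24.6 RPKM, and their FH-Mtgr1 lines 101, 110 and 129 RPKM. Every Mtgr1-/- clone lay below every other library, and adding back Mtgr1 raised Txnip 5.43-, 6.31- and 5.25-fold in clones A3, C1 and C3. In the Prdm14 clones the knockout and its rescue overlapped. The mean was 10.5-fold lower in Mtgr1-/- than in Prdm14-/- cells (log2 difference -3.37, SE 0.19). Txnip (chr3:96361880-96365806 in NCBIM37, the assembly also called mm9, plus strand) shares 606 exon bases with Gm15441 on the opposite strand. Gm15441 was below 1 RPKM in all 15 libraries, with 2 to 29 reads against 781 to 9194 for Txnip.

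For Txnip the E294K lines overlapped with the FH-Mtgr1 lines and lay below the other Prdm14 lines. They had 93.1 (F10) and 108 (G6) RPKM, below both FH-Prdm14 lines and both Prdm14-/- clones. Against FH-Prdm14 the log2 difference was -1.09 (SE 0.20, Benjamini-Hochberg adjusted p = 0.00351, limma), and it was lower in both clones (2.39-fold in F10 and 1.90-fold in G6). Against FH-Mtgr1 it was -0.17 (SE 0.19, adjusted p = 0.540). Txnip was higher in FH-Prdm14 than in FH-Mtgr1 cells (log2 difference 0.92, SE 0.19, adjusted p = 0.00243 from limma). The parental Prdm14-/- clones, without the added Prdm14, had a mean of 213 RPKM beside 214 RPKM in FH-Prdm14 (log2 difference -0.01, SE 0.20, no test).

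Ly6g6e, of the Ly6/uPAR family of small surface proteins, followed Txnip (Pearson r 0.923 over the 15 libraries, which share clones and condition). It was at 2.56, 3.36 and 2.02 RPKM in Mtgr1-/- clones A3, C1 and C3, and at 15.8, 13.1 and 18.4 RPKM in their FH-Mtgr1 lines. Prdm14-/- clone G6 had 25.7 and F10 58.5 RPKM, so that these clones differed from each other by more than G6 did from wt serum cells (23.4 RPKM). In the FH-Prdm14 lines it reached 68.9 and 80.0 RPKM, in E294K lines 32.6 (F10) and 37.0 (G6), and in the 2i libraries 59.9 and 35.7. The 3 Mtgr1-/- clones were the lowest of all libraries and the pair of FH-Prdm14 lines the highest. The means of Mtgr1-/- and Prdm14-/- cells differed 15.9-fold, or 9.72-fold without Prdm14-/- clone F10 (log2 difference -3.67, SE 0.31).

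Between rescue lines Ly6g6e was higher in FH-Prdm14 than in FH-Mtgr1 cells (log2 difference 2.21, SE 0.31, adjusted p = 0.000243). It was higher in E294K than in FH-Mtgr1 cells (1.13, SE 0.31, adjusted p = 0.0203), a call that was lost without either E294K library or without the FH-Mtgr1 library of clone C1 (adjusted p 0.0635 to 0.1367). It was lower in E294K than in FH-Prdm14 cells (-1.09, SE 0.34, adjusted p = 0.0430). This last call was lost when a replicate block for parental clone entered the fit (adjusted p = 0.0761), with an adjustment for GC content (-0.86, adjusted p = 0.1025), with no filter on low values (adjusted p = 0.0707) and without any of the 4 libraries (adjusted p 0.129 to 0.2066), while the E294K lines remained below both FH-Prdm14 lines. Ly6g6e (chr17:35213847-35215749, plus strand) shares 229 exon bases with Ly6g6d on the opposite strand. Ly6g6d had 4 to 71 reads per library where Ly6g6e had 26 to 1315, and whether counting used strand is not given in the sources used here, so some reads cannot be assigned.

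Matn1 encodes a matrilin, a matrix protein best known from cartilage, and was low in most conditions. It was at 14.7 and 8.05 RPKM in Prdm14-/- clones G6 and F10 and at 11.6 and 9.29 RPKM in their FH-Prdm14 lines. Those were the only 4 libraries above 3 RPKM: wt serum cells had 2.93, the 2i libraries 1.59 and 1.56, and the FH-Mtgr1 lines 1.27, 0.730 and 0.824 RPKM. Mtgr1-/- clone A3 had 0.121 RPKM on 5 reads (exact Poisson 95% interval 0.0393 to 0.283), C1 had 0.193 RPKM on 7 reads (0.0778 to 0.399) and C3 0.838 RPKM on 19 reads. These intervals cover counting error only. Clone C3 lay within the range of the FH-Mtgr1 lines, so the knockout and its rescue overlapped. The mean of Mtgr1-/- cells was 29.7-fold below that of Prdm14-/- cells. Leaving out 1 library at a time gave 21.0-fold (without Prdm14-/- clone G6) to 72.4-fold (without Mtgr1-/- clone C3). The last value rests on the libraries with 5 and 7 reads.

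The ranges of Matn1 in Prdm14-/- and FH-Prdm14 cells overlapped, and the E294K lines lay below both. The E294K lines had 0.730 (F10) and 1.32 (G6) RPKM, a log2 difference of -2.87 from FH-Prdm14 (SE 0.37, adjusted p = 0.000354), lower 12.7-fold in F10 and 8.82-fold in G6. Against FH-Mtgr1 the E294K difference was 0.07 (SE 0.34, adjusted p = 0.899). FH-Prdm14 was above FH-Mtgr1 by 2.94 (SE 0.34, adjusted p = 6.51e-05) and above 2i by 2.39 (SE 0.37, adjusted p = 0.000694). Matn1 was thus higher with overexpressed wt Prdm14 in serum than in 2i, in the 2 clones that were high as knockouts. Matn1 lies at chr4:130500300-130511390 (plus strand).

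**Figure D1:**
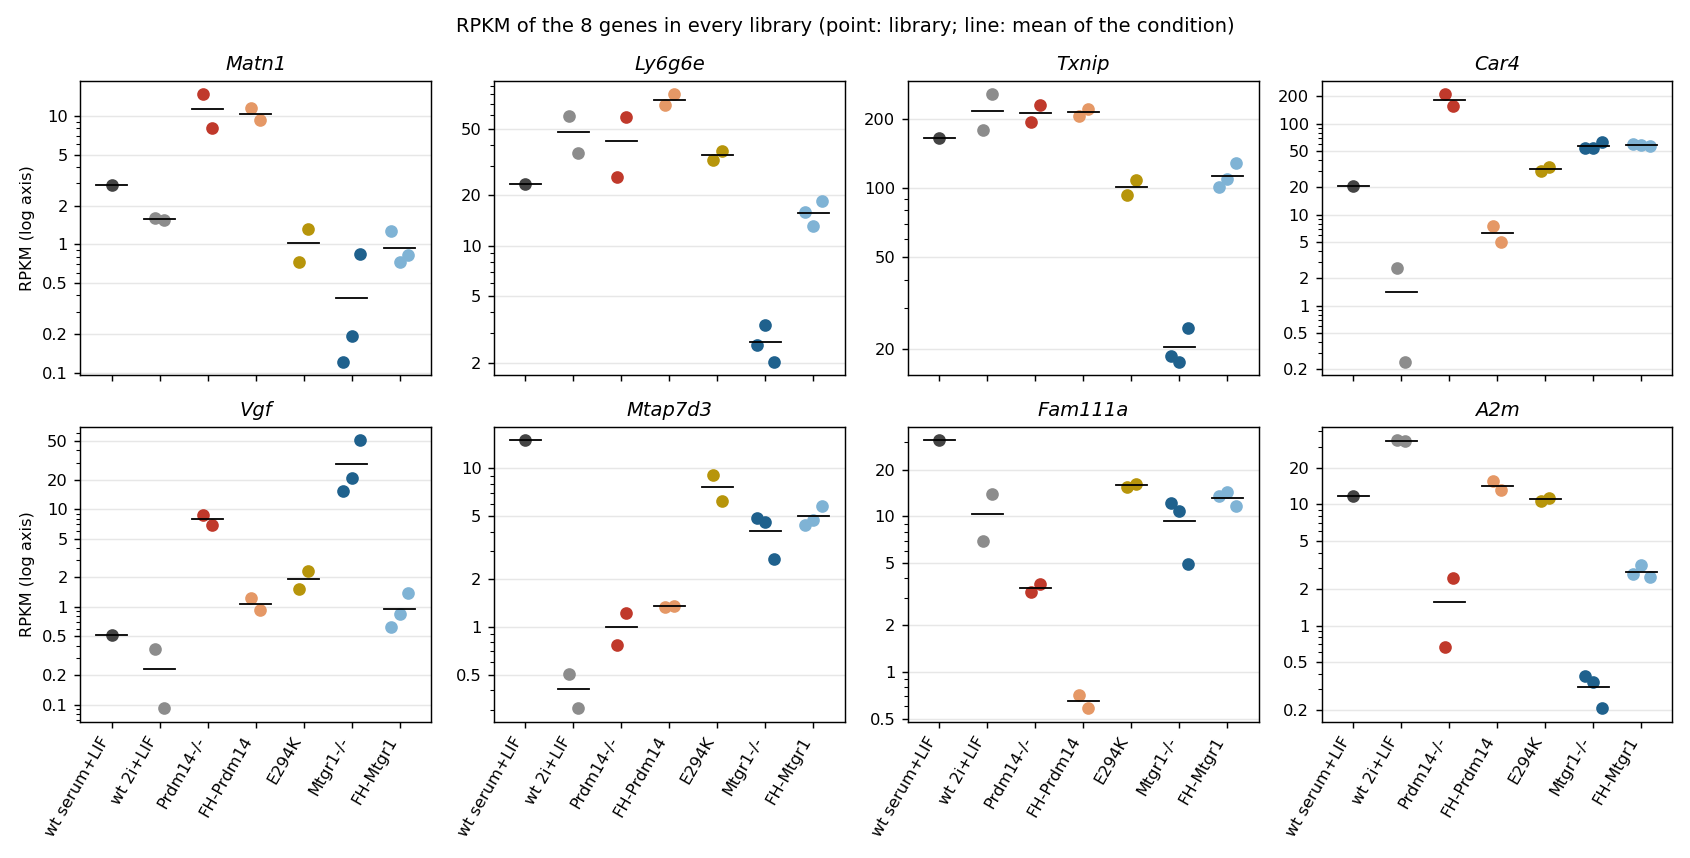
RPKM (log axis) of the 8 genes in each of the 15 libraries, grouped by condition; points are libraries and lines are condition means. Txnip, Ly6g6e, Matn1 and A2m have their lowest mean in Mtgr1-/- cells, and Fam111a has its lowest values, 0.706 and 0.584 RPKM, in the FH-Prdm14 lines.

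Car4 and Vgf were the genes high in the knockouts, and they separated the clones in opposite ways. Car4, a carbonic anhydrase anchored to the outer cell membrane, was at 210 and 156 RPKM in Prdm14-/- clones G6 and F10, and at 7.60 and 5.00 RPKM in their FH-Prdm14 lines, a fall of 27.6- and 31.2-fold on adding back Prdm14. Mtgr1-/- clones A3, C1 and C3 had 53.7, 54.7 and 62.7 RPKM. Their FH-Mtgr1 lines had 59.6, 58.1 and 56.7 RPKM, and the knockout overlapped with its rescue (log2 difference of Mtgr1-/- from FH-Mtgr1 -0.03, SE 0.37). All 6 of these libraries were above wt serum cells (20.8 RPKM). Car4 lies at chr11:84771288-84779546 (plus strand).

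Car4 was lowest in 2i, at 2.60 and 0.240 RPKM, the second value on 4 reads (exact Poisson 95% interval 0.0655 to 0.615). The log2 difference from wt serum cells was -3.82 (SE 0.56, adjusted p = 0.000809), where the spread comes mainly from other conditions because serum has 1 wt library. It was -2.79 without the second 2i library and -4.85 without the first. With only the 3 compared libraries in the fit it was not called (adjusted p = 0.336). The E294K lines had 30.5 (F10) and 33.1 (G6) RPKM, between both FH-Prdm14 lines and both Prdm14-/- clones, and their log2 difference from FH-Mtgr1 was -0.86 (SE 0.42, adjusted p = 0.146). That difference passed the threshold with voom on the reads (adjusted p = 0.0224) and with only the compared conditions (adjusted p = 0.00183).

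Vgf, which encodes a granin-type prohormone of neurons and endocrine cells, was highest in Mtgr1-/- cells and fell most on rescue there. Clones A3, C1 and C3 had 15.2, 20.9 and 50.5 RPKM and their FH-Mtgr1 lines 0.625, 0.849 and 1.38 RPKM, which is 24.4-, 24.6- and 36.5-fold less. Prdm14-/- clones G6 and F10 had 8.78 and 6.96 RPKM and their FH-Prdm14 lines 1.22 and 0.921 RPKM, 7.20- and 7.55-fold less. Both knockouts were thus above every rescue line and every wt library, and each Mtgr1-/- clone was above each Prdm14-/- clone. Clone C3 had the highest Vgf in both the knockout and the rescue. Vgf lies at chr5:137506165-137509221 (plus strand).

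In wt cells and in Prdm14-/- clones carrying tagged Prdm14, Vgf was lower than in either knockout. It was at 0.518 RPKM in wt serum cells and at 0.367 and 0.0917 RPKM in 2i, the latter on 3 reads (exact Poisson 95% interval 0.0189 to 0.268). The E294K lines had 1.53 (F10) and 2.34 (G6) RPKM, a log2 difference of 0.62 from FH-Prdm14 (SE 0.45, adjusted p = 0.349), with both lines above both FH-Prdm14 lines. Vgf has the most GC-rich transcript of the 8 (64.8% of bases), and with values adjusted for GC content this difference was 1.33 and passed the threshold (adjusted p = 0.0132). Against 2i, FH-Prdm14 was higher by 1.13 (SE 0.45, adjusted p = 0.0873, or 0.0207 once parental clone was a replicate block). With a pseudocount of 0.1 in place of 0.5 this difference was 1.96 (adjusted p = 0.0216), and with voom on the reads 2.43 (adjusted p = 0.147).

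**Figure D2:**
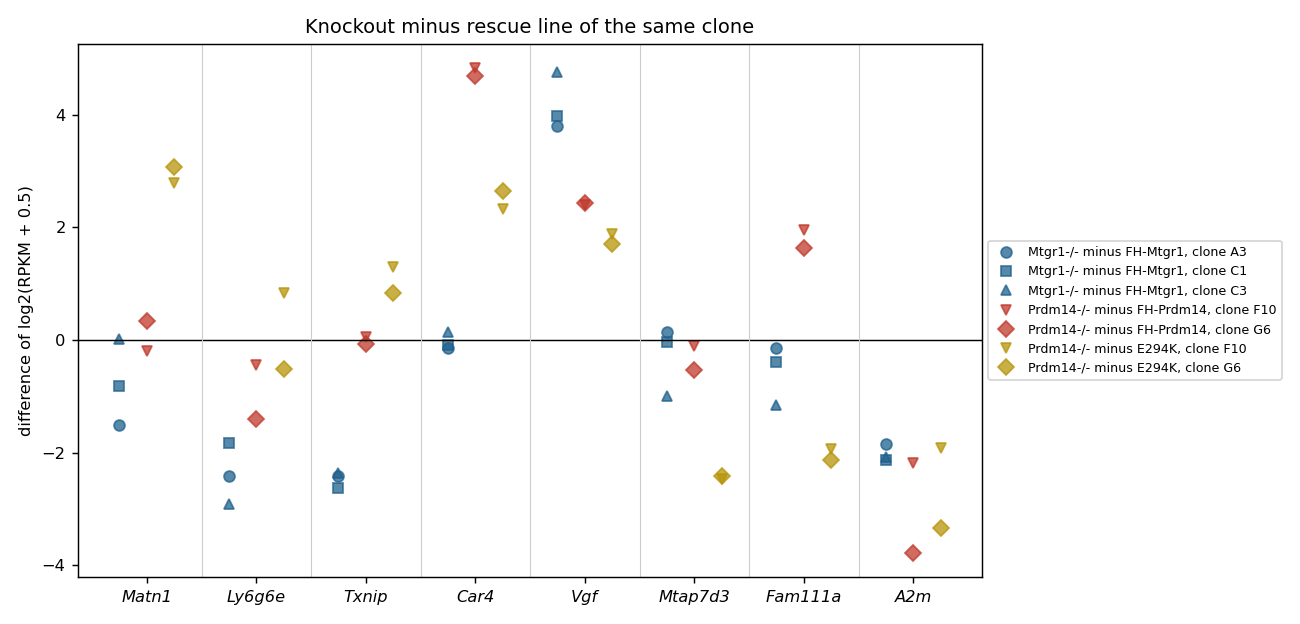
Differences of log2(RPKM + 0.5) between each knockout library and the rescue line of the same clone; blue, Mtgr1-/- minus FH-Mtgr1 (3 clones); red, Prdm14-/- minus FH-Prdm14 (2 clones); ochre, Prdm14-/- minus E294K (the same 2 clones). Car4 stands near 0 in the 3 Mtgr1 clones and between 4.70 and 4.83 against FH-Prdm14, and Fam111a is below 0 in the Mtgr1 clones and above 0 against FH-Prdm14.

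Fam111a and Mtap7d3 were both low in Prdm14-/- and FH-Prdm14 cells and higher in E294K cells. Fam111a encodes a protease that binds the sliding clamp Pcna and is known to restrict viruses and to protect replication forks. It was at 30.8 RPKM in wt serum cells, at 3.26 and 3.70 RPKM in Prdm14-/- clones G6 and F10, and lower still, at 0.706 and 0.584 RPKM, in their FH-Prdm14 lines. The E294K lines of the same clones had 15.6 (F10) and 16.1 (G6) RPKM. Loss and overexpression of Prdm14 therefore both went with low Fam111a, while the mutant protein, with an RNA level that overlapped that of FH-Prdm14, went with a level 24.6-fold above that of FH-Prdm14 (log2 difference 3.84, SE 0.36, adjusted p = 6.16e-05), the 5th highest difference of 13477 genes. This is the promoter with the Prdm14 motif printed above, and any part of the motif in these levels was not tested. The promoter of Mtap7d3, the other gene of this pattern, held no such motif.

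Among the Mtgr1 lines Fam111a was at 12.3, 10.8 and 4.97 RPKM in the knockout clones A3, C1 and C3 and at 13.6, 14.3 and 11.7 RPKM in FH-Mtgr1, and the ranges overlapped. FH-Prdm14 was below FH-Mtgr1 (log2 difference -3.58, SE 0.33, adjusted p = 1.53e-05) and below 2i, which had 6.91 and 13.9 RPKM (log2 difference -3.17, SE 0.36, adjusted p = 8.04e-05). E294K and FH-Mtgr1 differed by 0.26 (SE 0.33, adjusted p = 0.594). Both FH-Prdm14 lines were below every other library, and both Prdm14-/- clones were next. Fam111a (chr19:12620230-12664258, plus strand) shares 592 exon bases with the pseudogene Gm16274 on the opposite strand.

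Mtap7d3, a member of the MAP7 family of microtubule-binding proteins, was also highest in wt serum cells, at 15.0 RPKM. Prdm14-/- clones G6 and F10 had 0.771 and 1.23 RPKM and their FH-Prdm14 lines 1.34 and 1.36 RPKM. The E294K lines had 9.09 (F10) and 6.25 (G6) RPKM. Both E294K lines were thus above both their parental clones and both FH-Prdm14 lines (log2 difference from FH-Prdm14 2.12, SE 0.28, adjusted p = 0.000366). In 2i Mtap7d3 was at 0.503 and 0.307 RPKM, below every serum library, whereas Fam111a in 2i overlapped with the Mtgr1 lines. FH-Prdm14 was above 2i by 1.04 (SE 0.28, adjusted p = 0.0167), a call that was lost with only the compared conditions and without either FH-Prdm14 library or the second 2i library (adjusted p 0.0688 to 0.0912).

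The Mtgr1-/- clones had 4.86, 4.59 and 2.68 RPKM of Mtap7d3 and their FH-Mtgr1 lines 4.38, 4.74 and 5.82 RPKM, so that the knockout overlapped with its rescue. FH-Prdm14 was below FH-Mtgr1 (log2 difference -1.56, SE 0.25, adjusted p = 0.000570), and the E294K lines were above FH-Mtgr1 by 0.56 (SE 0.25, adjusted p = 0.118). In both genes the lowest Mtgr1-/- clone was C3, which is also the clone with the most Vgf. Across the 15 libraries the r of Mtap7d3 and Fam111a was 0.609. Mtap7d3 lies at chrX:54051035-54075503 (minus strand).

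A2m encodes alpha-2-macroglobulin, a secreted inhibitor that traps proteases, and was low in both knockouts. It was at 0.384, 0.343 and 0.208 RPKM in Mtgr1-/- clones A3, C1 and C3 (37, 29 and 11 reads) and at 0.665 and 2.47 RPKM in Prdm14-/- clones G6 and F10. The rescue restored it to different heights: the FH-Mtgr1 lines had 2.67, 3.19 and 2.51 RPKM, and the FH-Prdm14 lines 15.5 and 13.01 RPKM, against 11.7 RPKM in wt serum cells. Within clones, adding back Mtgr1 raised A2m 6.95-, 9.28- and 12.1-fold and adding back Prdm14 raised it 23.3-fold in G6 and 5.27-fold in F10. The 2 wt 2i libraries had 33.7 and 33.5 RPKM and were the highest. A2m lies at chr6:121586191-121629255 (plus strand).

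A2m was also present in the E294K lines, near its level in wt serum cells. The E294K lines had 10.7 (F10) and 11.3 (G6) RPKM, and their log2 difference from FH-Prdm14 was -0.35 (SE 0.32, adjusted p = 0.462), although both lines were below both FH-Prdm14 lines, and the difference passed the threshold with only the compared conditions (adjusted p = 0.03775). E294K was above FH-Mtgr1 by 1.81 (SE 0.29, adjusted p = 0.00160) and FH-Prdm14 above FH-Mtgr1 by 2.17 (SE 0.29, adjusted p = 0.000185). FH-Prdm14 was below 2i (log2 difference -1.21, SE 0.32, adjusted p = 0.0163), a call lost with a pseudocount of 0.1, without either FH-Prdm14 library and without the second 2i library (adjusted p 0.0502 to 0.1083). Vgf was the gene most opposed to A2m among the 8 (r -0.857 over the 15 libraries, a description).

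Counted over the genes that each comparison could test, 5 of 7 members passed the threshold between E294K and FH-Prdm14, where 19.5% of all 13477 genes did: Fam111a and Mtap7d3 rose and Matn1, Txnip and Ly6g6e fell. Between FH-Prdm14 and FH-Mtgr1 all 6 members tested passed, where 41.6% of all genes did, with Matn1, Ly6g6e, Txnip and A2m higher and Mtap7d3 and Fam111a lower in FH-Prdm14. Between E294K and FH-Mtgr1 2 of 7 passed (Ly6g6e and A2m, both higher in E294K), near the 26.1% of all genes. Between FH-Prdm14 and 2i 4 of 7 passed, where 23.5% of all genes did, and between 2i and wt serum, with 1 serum library, 1 of 5 (Car4), near the 22.9% of all genes. The median log2 difference of the members tested was -0.35 between E294K and FH-Prdm14 and 1.54 between FH-Prdm14 and FH-Mtgr1, beside -0.06 and 0.11 over all genes. These comparisons share libraries, and were not independent of each other. The FH-Prdm14, E294K and FH-Mtgr1 lines also come from the clones whose knockouts chose the genes. Where FH-Mtgr1 is compared with FH-Prdm14 or E294K, traits of these clones cannot be told apart from the rescue. The counts there are thus not independent of the choice.

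**Figure D3:**
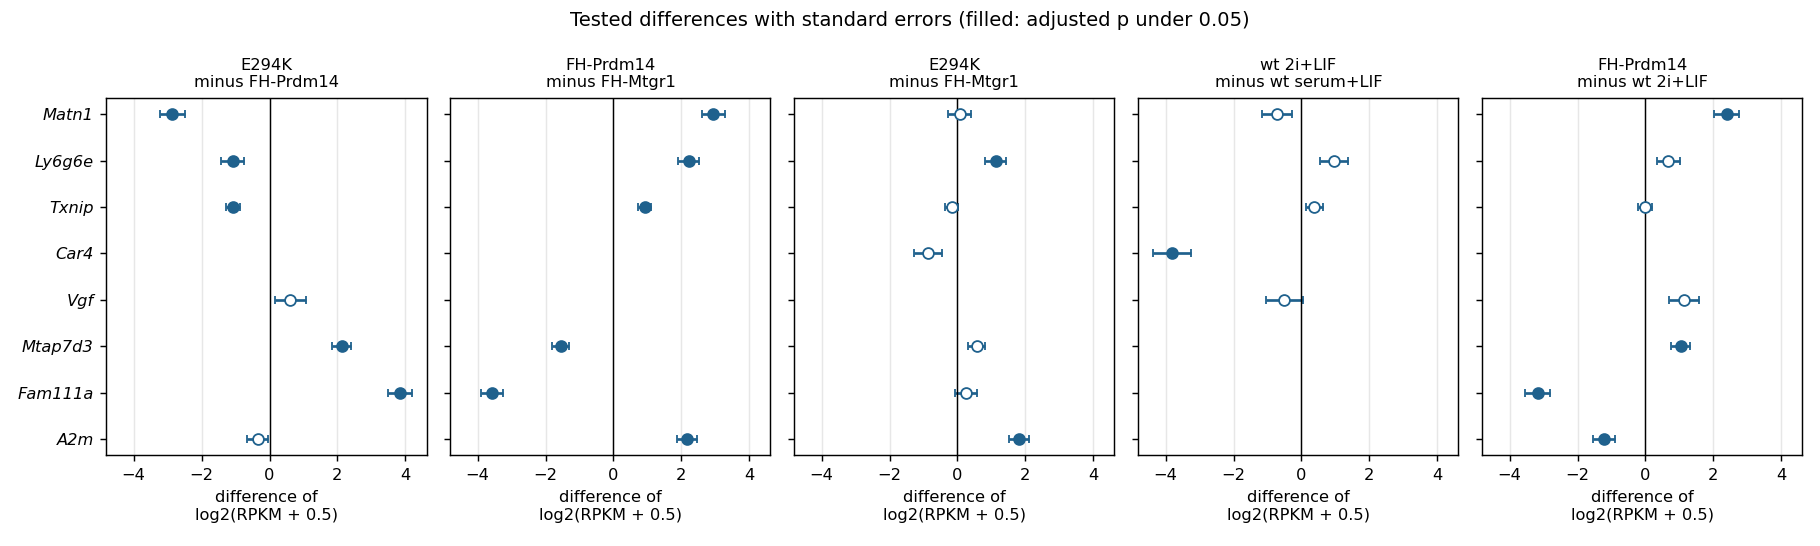
Differences of log2(RPKM + 0.5) with standard errors from the fit over all 15 libraries, for the members each comparison could test (filled, adjusted p under 0.05; open, not). Matn1 and Fam111a lie on opposite sides of 0 in the comparison of E294K with FH-Prdm14 and near 0 in that of E294K with FH-Mtgr1.

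The transcripts differed in base composition, and so did the libraries. Across 12046 genes with a known transcript the difference between E294K and FH-Prdm14 had a Spearman rho of -0.397 with GC content. The members called higher in E294K, Fam111a (40.2% GC) and Mtap7d3 (41.7%), have the least GC-rich transcripts of the 8. Car4 (51.3% GC) was also higher in E294K (log2 difference 2.27) but had no test. Vgf (64.8% GC) was higher by 0.62, which did not pass the threshold in the main fit. With values adjusted for GC content, Fam111a and Mtap7d3 remained past the threshold. Read lengths and instruments differed among libraries, and which libraries had which is not given in the sources used here, so this cannot be told apart from condition.

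Genes of the same families were read between the knockouts, the comparison that named the set. Of 48 relatives tested, 21 passed the threshold (5 higher and 16 lower in Mtgr1-/- cells), or 43.8%, where 35.4% of all genes did. With median-of-ratios scaling 22 passed, 8 higher and 14 lower. By family, 3 of 6 matrilin and cartilage genes, 3 of 6 Ly6/uPAR genes and 2 of 4 granin and prohormone genes passed, all lower, and 6 of 14 thioredoxin and arrestin genes passed, 2 higher and 4 lower. In the MAP7 family 1 of 3 passed (lower), in the sliding clamp and clamp loader group 1 of 6 (higher), and among A2m relatives 1 of 2 (lower). The furthest from 0 in each family are named, and they do not stand for their families. Arrdc4, the arrestin-domain paralog of Txnip and also known as a target of glucose-sensing factors, had means of 8.50 against 40.9 RPKM (log2 difference -2.26, SE 0.23, adjusted p = 4.40e-05). Matn3 had 1.18 against 5.63 RPKM (-1.85, SE 0.22, adjusted p = 0.000107) and the cartilage collagen Col2a1 4.23 against 24.2 RPKM (-2.37, SE 0.19, adjusted p = 1.22e-05). Ly6g6d (-1.71, SE 0.35, adjusted p = 0.00306) and Ly6g6c (-1.09, SE 0.27, adjusted p = 0.00838), neighbours of Ly6g6e in the same cluster, were lower too. Ly6g6d had 4, 13 and 5 reads in Mtgr1-/- clones A3, C1 and C3. It shares exon bases with Ly6g6e, so some of its reads may be those of Ly6g6e, and it is not an independent relative. Between E294K and FH-Prdm14 14 of the 48 relatives passed, 7 higher and 7 lower, where 19.5% of all genes did. Matn3, Col2a1 and Arrdc4 were lower in E294K, with log2 differences of -0.96, -1.34 and -1.26 (adjusted p = 0.0150, 0.00125 and 0.00494 from limma). Ly6g6d and Ly6g6c did not pass there (log2 differences 0.09 and 0.51, adjusted p = 0.890 and 0.243 from limma).

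Other relatives did not follow their member. Car2 and Car3, cytosolic carbonic anhydrases, were higher in Mtgr1-/- cells (log2 differences 1.36, SE 0.39, and 1.99, SE 0.23), where Car4 was lower, and the other 2 of 4 called carbonic anhydrases were lower. The prohormone genes Chga (-0.97, SE 0.23) and Pcsk1n (-1.06, SE 0.38) were lower where Vgf was higher. Map7 was lower (-0.60, SE 0.11) where Mtap7d3 was higher. Pcna, the partner of the Fam111a protein, was higher like Fam111a (0.85, SE 0.19), and Lrp1, the receptor that clears A2m, lower like A2m (-1.72, SE 0.25), and the glucose transporter gene Slc2a3 was lower (-0.79, SE 0.23). All of these passed the threshold (adjusted p 7.78e-05 for Car3 to 0.0457 for Pcsk1n, from limma). The calls of Pcsk1n, Slc2a3, Car2, Chga, Ly6g6c and Pcna were each lost under at least 1 other setting or without 1 library.

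**Figure D4:**
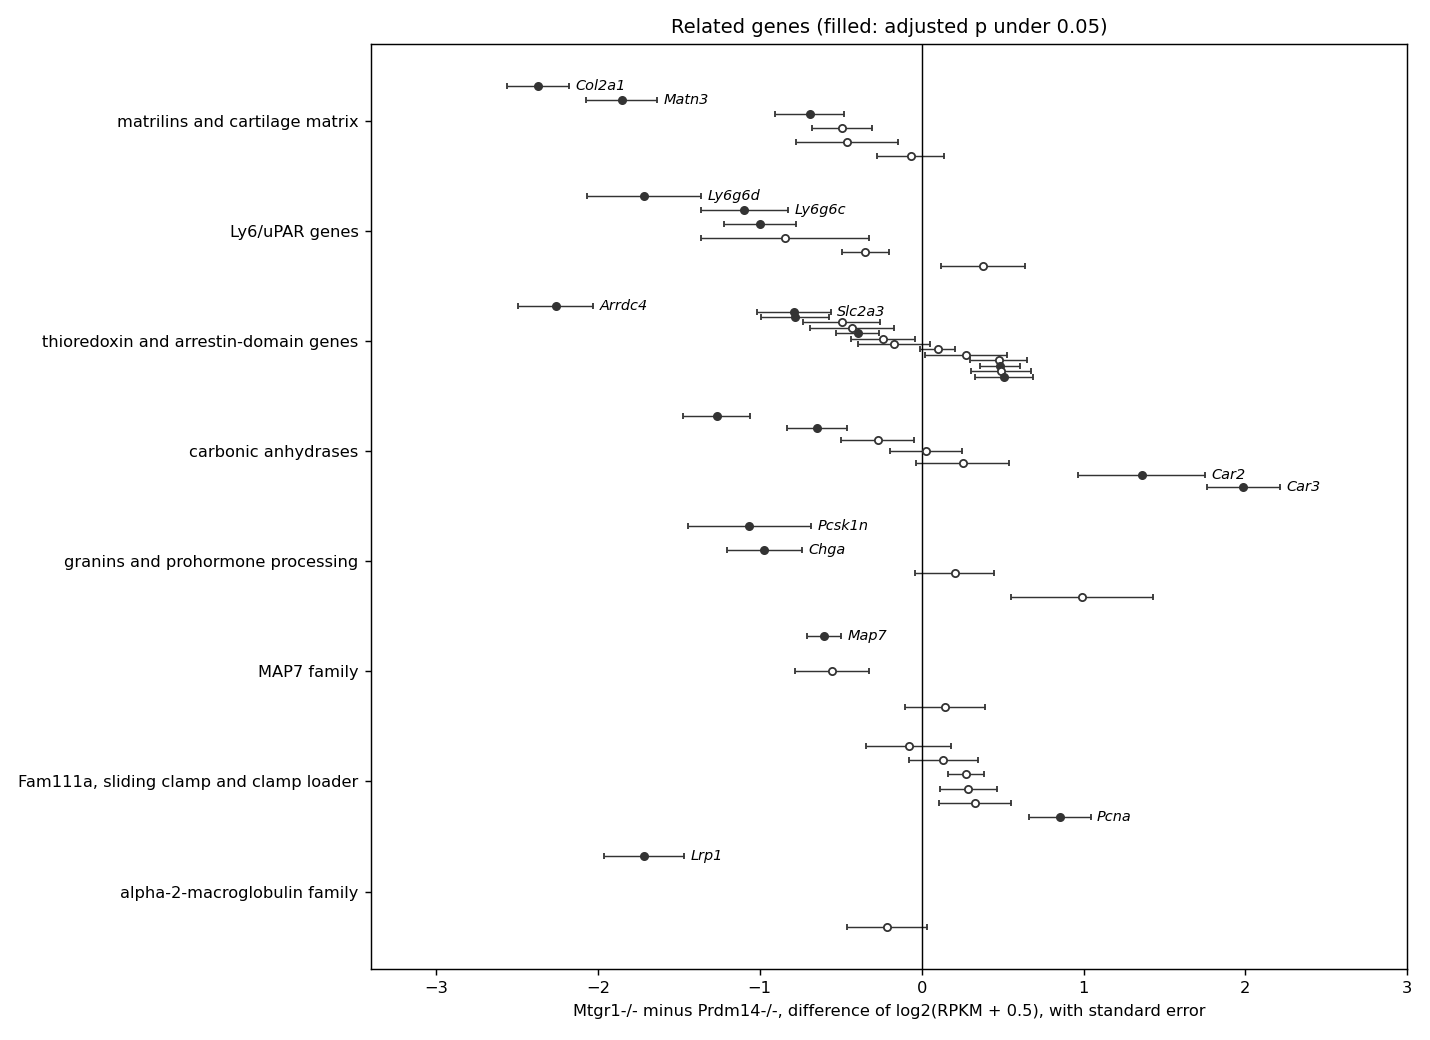
Difference of log2(RPKM + 0.5) between Mtgr1-/- and Prdm14-/- cells with standard error for the 48 related genes tested, by family (filled, adjusted p under 0.05); the named genes are the at most 2 furthest from 0 that passed in each family. Col2a1, Arrdc4 and Matn3 lie furthest to the left and Car3 furthest to the right.

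Beside the genes in the genome, Laptm5, 8244 bases from Matn1 and a lysosomal membrane protein of blood cells, was lower in Mtgr1-/- than in Prdm14-/- cells (log2 difference -2.29, SE 0.25, adjusted p = 5.85e-05), as was Ptpru, 812982 bases away on its other side (-1.02, SE 0.19, adjusted p = 0.00181). Znhit3 beside Car4 was higher (1.08, SE 0.12, adjusted p = 7.38e-05), against the direction of Car4, and Ap1s1, 1642 bases from Vgf, was higher (0.71, SE 0.17, adjusted p = 0.00740). Hfe2 beside Txnip was higher (0.83, SE 0.23, adjusted p = 0.0139) at no more than 1.36 RPKM. Usp32, Plod3, Fhl1 and Dtx4 did not pass the threshold. Ly6g6f, Gm4952, Iqsec3 and Mug1 were below the filter.

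The genes most like each member over the 15 libraries were a description of the pattern and had no test. Psmb8 and Oasl2, genes of the interferon response, were most like Car4 together with Fbxo32 (r 0.981, 0.954 and 0.958). Bmp1, Prss23 and Ehd2 were most like Vgf (0.979, 0.977 and 0.973), Rdm1, Nadk2 and Fam120aos like Txnip (0.972, 0.970 and 0.969), and Sox15, Gm2373 and Gpa33 like Ly6g6e (0.966, 0.963 and 0.960). Pfkp, Tmem231 and Phf11d were most like A2m (0.975, 0.974 and 0.972), Zfp444, Celf5 and Arhgap28 like Matn1 (0.957, 0.954 and 0.950), Jmjd1c, 4933404O12Rik and Arrdc3 like Mtap7d3 (0.966, 0.946 and 0.926), and Pir and Rdx were among the 3 most like Fam111a (0.913 and 0.912). Of the 24 genes ranked in this way, 7 were also among the 3 most alike by the 7 condition means. At the edge of the choice, Prss42 was the gene after Txnip in the direct comparison (log2 difference -3.31, with 0.284 to 0.655 RPKM in Mtgr1-/- and 7.93 to 11.5 RPKM in Prdm14-/- cells).

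Libraries had 10668572 to 21218414 reads on genes. Cbfa2t2 RNA was at 18.02 to 19.9 RPKM in Mtgr1-/- clones and Prdm14 RNA at 1.96 and 3.60 RPKM in Prdm14-/- clones, which does not check the knockouts, since an edit need not change the RNA level. None of 8 pluripotency markers was under 1 RPKM throughout a condition, and their summed level was 1702 to 1973 RPKM in Mtgr1-/- and 2839 to 5366 RPKM in all other libraries. Trophoblast markers (8 genes) summed to 849 to 1381 RPKM in Mtgr1-/- cells, 435 to 596 RPKM in Prdm14-/- cells and 25.1 to 89.2 RPKM in all others. Mesoderm markers (6) summed to 143 to 241 RPKM in both knockouts and 3.35 to 28.3 RPKM in the others. Of these 6, 3 in Mtgr1-/- and 4 in Prdm14-/- cells were under 1 RPKM in every library of the condition. Of the 8 trophoblast markers, 1 in Mtgr1-/- and 2 in Prdm14-/- cells were. The sums thus rest on part of each list. The trophoblast sums were highest in Mtgr1-/- and next in Prdm14-/- cells, as Vgf was, and the part of these markers in the values of Vgf, Car4 and A2m was not tested. In bulk RNA, fewer cells of a type and less RNA per cell cannot be told apart. Fibroblast markers summed to at most 30.2 RPKM, with Lum and Postn at 0 in wt, FH-Prdm14 and E294K cells, primitive endoderm markers (8) to 97.9 to 100.2 RPKM in Prdm14-/- cells and 18.2 to 96.8 RPKM in the others. Neural markers (6) summed to 98.1 to 126 RPKM in Mtgr1-/- cells, where 3 of them were under 1 RPKM in every library. In all others they summed to 17.3 to 68.0 RPKM, and their part in the level of Vgf was not tested.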

How the data were processed

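Polyadenylated RNA was sequenced as single-end reads. The authors used Tophat (mm9) for alignment and HTSeq for counting on RefSeq genes and deposited RPKM values with gene lengths, 1 library per file. RPKM times length, in units of the smallest value above 0 in a library, gave whole reads (within 0.01) for 100.0% of values, from which depth was taken. The members and gene lists were chosen with earlier results of these data known.

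Values were taken as log2(RPKM + 0.5), which understates differences of low genes. Genes with at least 1 RPKM in at least 2 libraries were fitted with limma 3.58.1 (R 4.3.3; lmFit, contrasts.fit, eBayes with trend) over 15 libraries, 1 mean per condition, with two-sided p-values, Benjamini-Hochberg adjustment and a threshold of 0.05. P-values rest on a spread pooled within all conditions, between clones or, in wt 2i, between the 2 libraries of unedited cells. The single wt serum library takes its spread from the other conditions. The fit was run on simulated data with the same spread in all libraries. Unequal spread between conditions was not checked in this way. Replicates did not agree within sampling noise (chi-square per degree of freedom 3.255 to 64.45), so none were merged. Clone names in the labels pair knockout and rescue lines of 1 parental clone; deviations of same-named libraries correlated at 0.299 between Prdm14-/- and FH-Prdm14 and between -0.182 and 0.0797 in the other pairs of conditions. Named genes were the members, the targeted genes, at most 2 called genes per related family, the 3 most correlated genes, the next gene in rank and nearest neighbours. Also named were genes sharing exon bases with a member, fibroblast markers and the motif genes with the largest rises in E294K against FH-Prdm14. The motif genes were picked after the values had been seen. 1 correlated gene is not reported here. Alternatives were other pseudocounts, filters and scaling, a clone block, voom, a GC adjustment (lowess span 0.3), the compared conditions alone and leaving out libraries. ChIP-seq samples were not analysed here.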

Additional observations from a re-analysis of the deposited data

Results flagged for a closer look

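Fam111a differed from its own rescue with opposite sign in the 2 sets of clones. The knockout was below its own rescue in all 3 Mtgr1 clones (log2 differences -0.14, -0.39 and -1.16 in A3, C1 and C3) and above it in both Prdm14 clones (1.64 in G6 and 1.95 in F10). The means of these differences were 2.36 apart (-2.36 for Mtgr1 minus Prdm14 clones). The ranges of Mtgr1-/- and FH-Mtgr1 libraries overlapped, and clone C3 was furthest from its rescue. The difference was not tested, since the Prdm14 knockout helped to choose the gene.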

How the results depend on the processing

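Every difference of a tested member past the threshold kept its sign under every alternative run. With the compared conditions alone, 7214 genes passed between E294K and FH-Prdm14 (2633 over all libraries), 626 between FH-Prdm14 and 2i (3163), and 0 between 2i and wt serum (3084), where limma gave 1593 genes at an unadjusted p under 0.05, voom over all libraries gave 3257, and 0 members passed. Leaving out single libraries gave 869 to 1142 genes between E294K and FH-Prdm14, 2844 to 4845 between FH-Prdm14 and FH-Mtgr1 (5600), 1024 to 2848 between E294K and FH-Mtgr1 (3517), 3463 to 3901 between 2i and wt serum, 1395 to 5025 between FH-Prdm14 and 2i, and 2995 to 5310 between the knockouts (4776). Members passing then numbered 1 or 2 between E294K and FH-Mtgr1, 1 or 2 between 2i and wt serum, where Ly6g6e passed without the second 2i library (adjusted p = 0.0439 from limma), and 2 to 4 between FH-Prdm14 and 2i. Related genes passing between the knockouts numbered 13 to 23 (21 over all libraries; 13 without Prdm14-/- clone F10). With a replicate block for parental clone 2113 genes passed between E294K and FH-Prdm14, and apart from Ly6g6e there and Vgf between FH-Prdm14 and 2i the block changed no call of a tested member. Median-of-ratios scaling moved the median of all genes by -0.105 between FH-Prdm14 and FH-Mtgr1, 0.112 between 2i and wt serum and -0.111 between FH-Prdm14 and 2i, and the share of higher calls from 63.1% to 52.6%, 40.6% to 53.4% and 66.0% to 53.9%, and changed no call of a tested member. The causes of these changes were not tested. Depth limits Matn1 in Mtgr1-/- and Car4 and Vgf in 2i cells, where a library held under 10 reads.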

Other observations

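The genes with the Prdm14 motif in the 250 bases before their start were read after the values of Fam111a, itself among them, had been seen. Of 76 such genes, Fam111a included, 54 were in the files and 29 were tested. Between E294K and FH-Prdm14 6 of these passed the threshold, near the 19.5% of all genes. Of them 5 were higher, Fam111a included, and 1 lower, where 6.35% of all genes were higher and 13.2% lower. After Fam111a, the largest rises were of Hmgxb4 (log2 difference 1.45, adjusted p = 0.00427), Tenm4 (1.37, adjusted p = 0.0309) and Kdm4c (1.10, adjusted p = 0.00123), each from limma with Benjamini-Hochberg adjustment. Between FH-Prdm14 and FH-Mtgr1 10 of 29 passed, where 41.6% of all genes did. Of them 3 were higher and 7 lower, Fam111a included, where 26.2% of all genes were higher and 15.4% lower. Hmgxb4 was lower (log2 difference -1.60, adjusted p = 0.000576 from limma). Between the knockouts 8 of 29 passed, where 35.4% of all genes did. Of them 2 were higher and 6 lower in Mtgr1-/- cells, where 14.4% of all genes were higher and 21.1% lower. These counts have no test of their own, and the median log2 differences of the 29 genes were 0.06, -0.26 and -0.20 in these comparisons, beside -0.06, 0.11 and -0.04 over all genes.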
